A study of Mus musculus with 4 samples.

Results

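The genes described here are 9 transcription factors tied to the Kupffer cell lineage, Nr1h3, Rxra, Spic, Tfec, Maf, Zeb2, Spi1, Id3 and Id1, chosen by name from the 27998 genes of the deposited count tables. Their RNA was followed across the cell classes of mouse liver and across diets. The study sequenced CD45+ CD146- liver cells of C57BL/6J mice by droplet single-cell RNA sequencing (10x Genomics), in 2 libraries per diet. The diets were a control diet and the Amylin liver NASH model diet, which produces steatohepatitis. No transgene or deletion is listed for either group, and both shared the same digestion in the presence of flavopiridol. The labels do not say whether each library came from its own mouse, so p-values measure the spread between these libraries, which may be technical.

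Kupffer cells are the resident macrophages of the liver sinusoid. As background, their identity is known to depend on the nuclear receptor LXR-alpha (encoded by Nr1h3), which pairs with the retinoid X receptor (Rxra), on the ETS factor PU.1 (Spi1) that all macrophages use, and on ID3, a helix-loop-helix protein without DNA contact of its own that is induced by BMP and TGF-beta signals. Spi-C (Spic) is an ETS factor of iron-recycling macrophages that is induced by heme, TFEC belongs to the MiT family of basic helix-loop-helix factors, c-MAF (Maf) is a basic leucine zipper factor of mature macrophages, and ZEB2 is a zinc finger repressor needed for the identity of tissue macrophages.

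After filtering, 6158 of 6927 barcodes were kept, and clusters were drawn without the 9 genes among the variable genes. The macrophage-like class, in which C1qa, C1qb and C1qc were each detected in at least 90% of the cells of every cluster, held 1000 and 885 control cells and 764 and 1080 NASH cells. C1qa stood at 4894, 4777, 5263 and 5984 CPM there. The control and NASH libraries differed in depth, with a median of 3200 and 2849 UMIs per macrophage-like cell in the controls against 8440.5 and 7734.5 in NASH. The control libraries also stood apart from each other, since 867 of the 1000 cells of control replicate 1 lay in a cluster led by Cd163, Fkbp5 and Lepr and 718 of the 885 cells of control replicate 2 in one led by Marco, Cxcl13 and Cd55. Red cell RNA was high in control replicate 2, where 9 erythroid and platelet genes summed to 2083 CPM in macrophage-like cells against 297, 484 and 467 CPM in the other libraries. Between 2 and 8 barcodes were shared by any pair of libraries. Endothelial-like cells were present (55, 121, 57 and 43 per library, controls first) although the sort was against CD146. Levels are given as CPM, UMIs of a gene per 1000000 UMIs of the summed class. Tests used edgeR's quasi-likelihood model, and p-values were adjusted by Benjamini-Hochberg over all genes tested.

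Promoters are shown for the 4 genes that were lower together in the Clec4f- macrophages of NASH described later, as the 250 bases before the start listed by RefSeq (GRCm38.p6), 5′ to 3′ on the gene's strand. Nr1h3 lies at chr2:91195117-91195366 (minus strand), Spic at chr10:88683024-88683273 (minus strand), Tfec at chr6:16898442-16898691 (minus strand) and Rxra at chr2:27676951-27677200 (plus strand). The Nr1h3, Spic and Rxra windows lie inside the GENCODE bounds of their genes given below, since RefSeq and GENCODE place the start differently. Matches are those of these windows alone. Capitals mark a match, on either strand, to any of 8 motifs searched, each taken as plain letters.
Nr1h3: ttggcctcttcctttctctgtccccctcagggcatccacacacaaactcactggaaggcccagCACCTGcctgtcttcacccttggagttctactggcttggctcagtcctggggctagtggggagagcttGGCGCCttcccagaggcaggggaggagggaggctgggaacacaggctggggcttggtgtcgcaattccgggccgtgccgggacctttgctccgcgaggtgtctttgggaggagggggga
Spic: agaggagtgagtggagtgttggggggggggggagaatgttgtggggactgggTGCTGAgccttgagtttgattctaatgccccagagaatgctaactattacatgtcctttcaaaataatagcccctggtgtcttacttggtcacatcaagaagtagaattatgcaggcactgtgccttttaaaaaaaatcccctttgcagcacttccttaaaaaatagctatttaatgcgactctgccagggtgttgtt
Tfec: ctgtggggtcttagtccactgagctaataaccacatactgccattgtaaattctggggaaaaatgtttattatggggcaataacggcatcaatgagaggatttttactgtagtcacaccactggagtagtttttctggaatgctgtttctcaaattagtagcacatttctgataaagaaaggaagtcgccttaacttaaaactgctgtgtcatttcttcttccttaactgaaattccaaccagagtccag
Rxra: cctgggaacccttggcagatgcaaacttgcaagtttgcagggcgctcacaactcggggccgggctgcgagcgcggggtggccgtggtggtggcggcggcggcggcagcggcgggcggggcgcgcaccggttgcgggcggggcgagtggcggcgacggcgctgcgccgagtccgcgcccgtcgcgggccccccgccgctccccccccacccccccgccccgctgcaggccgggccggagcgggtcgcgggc

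The motifs were GAGGAA (the ETS core of PU.1 sites, in 23.1% of 27025 RefSeq promoters of this length), AGGTCA (a nuclear receptor half-site, 13.8%), AGGTCA followed after 4 bases by AGGTCA (the LXR and RXR repeat, 0.0111%, which contains the half-site), TGCTGA (a MAF half-site, 15.8%), CACGTG (the MiT box, 6.04%), CAGGTG (the ZEB box, 17.1%), GGCGCC (a BMP SMAD element, 9.57%) and GTGGGAA (the RBPJ core, 5.39%). Nr1h3 held 1 ZEB box and 1 SMAD element, Spic held 1 MAF half-site, and these letters did not occur in the Tfec and Rxra windows. The windows differed widely in base composition, with 63.2% G and C for Nr1h3, 44.8% for Spic, 39.2% for Tfec and 81.2% for Rxra. Of the other members with a listed promoter, Id3 held 2 ETS cores and Zeb2 held 1. The Id3 window too lies inside the GENCODE bounds of its gene. Sequences of Id1, Maf and Spi1 were not used here.

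All 9 genes are protein-coding. On GRCm38 (GENCODE vM21), Nr1h3 (ENSMUSG00000002108) lies at chr2:91184061-91202834, Rxra (ENSMUSG00000015846) at chr2:27676440-27762957, Zeb2 (ENSMUSG00000026872) at chr2:44983632-45117395, Spi1 (ENSMUSG00000002111) at chr2:91082390-91115756 and Id1 (ENSMUSG00000042745) at chr2:152736251-152737410. Spic (ENSMUSG00000004359) lies at chr10:88674772-88685015, Tfec (ENSMUSG00000029553) at chr6:16833373-16898441, Maf (ENSMUSG00000055435) at chr8:115682942-115707794 and Id3 (ENSMUSG00000007872) at chr4:136143497-136145755. Nr1h3, Maf and Zeb2 overlap other annotated genes, on the opposite strand Gm23390, Gm15655 and Zeb2os among them. On the same strand, Gm13783 overlaps Nr1h3 and Mir5129 overlaps Zeb2. Whether reads were counted by strand is not given in the sources used here. Whether reads of a partner entered the counts of these genes was not tested.

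The members were not equally restricted to macrophages. Nr1h3 was highest in macrophage-like cells, at 520.5 and 672 CPM in controls and 297 and 300.5 CPM in NASH. The cycling C1q-high cells came next, at 431, 540.3, 198 and 238 CPM in the same order, and their range overlapped that of the macrophage-like cells. Endothelial-like cells followed at 49.8 to 99.8 CPM, below every cycling library, and B cell-like cells reached only 10.7 to 17.6 CPM. A fall-off of this kind was also seen for Spic. Its levels in macrophage-like cells were 81.6, 258, 26.8 and 55.0 CPM, controls first, while B cell-like cells had 0 UMIs in all 4 libraries, which allows up to 17.8 CPM in the library with the fewest UMIs (3 counts of the total, counting error only). Rxra, the partner of LXR-alpha, likewise led in macrophage-like cells at 211, 177, 60.6 and 65.6 CPM, with endothelial-like cells at 65.5, 90.8, 28.1 and 49.7 CPM. The NASH macrophage-like values of Rxra lay within the range of the endothelial-like libraries, and the control values above it.

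**Figure D1:**
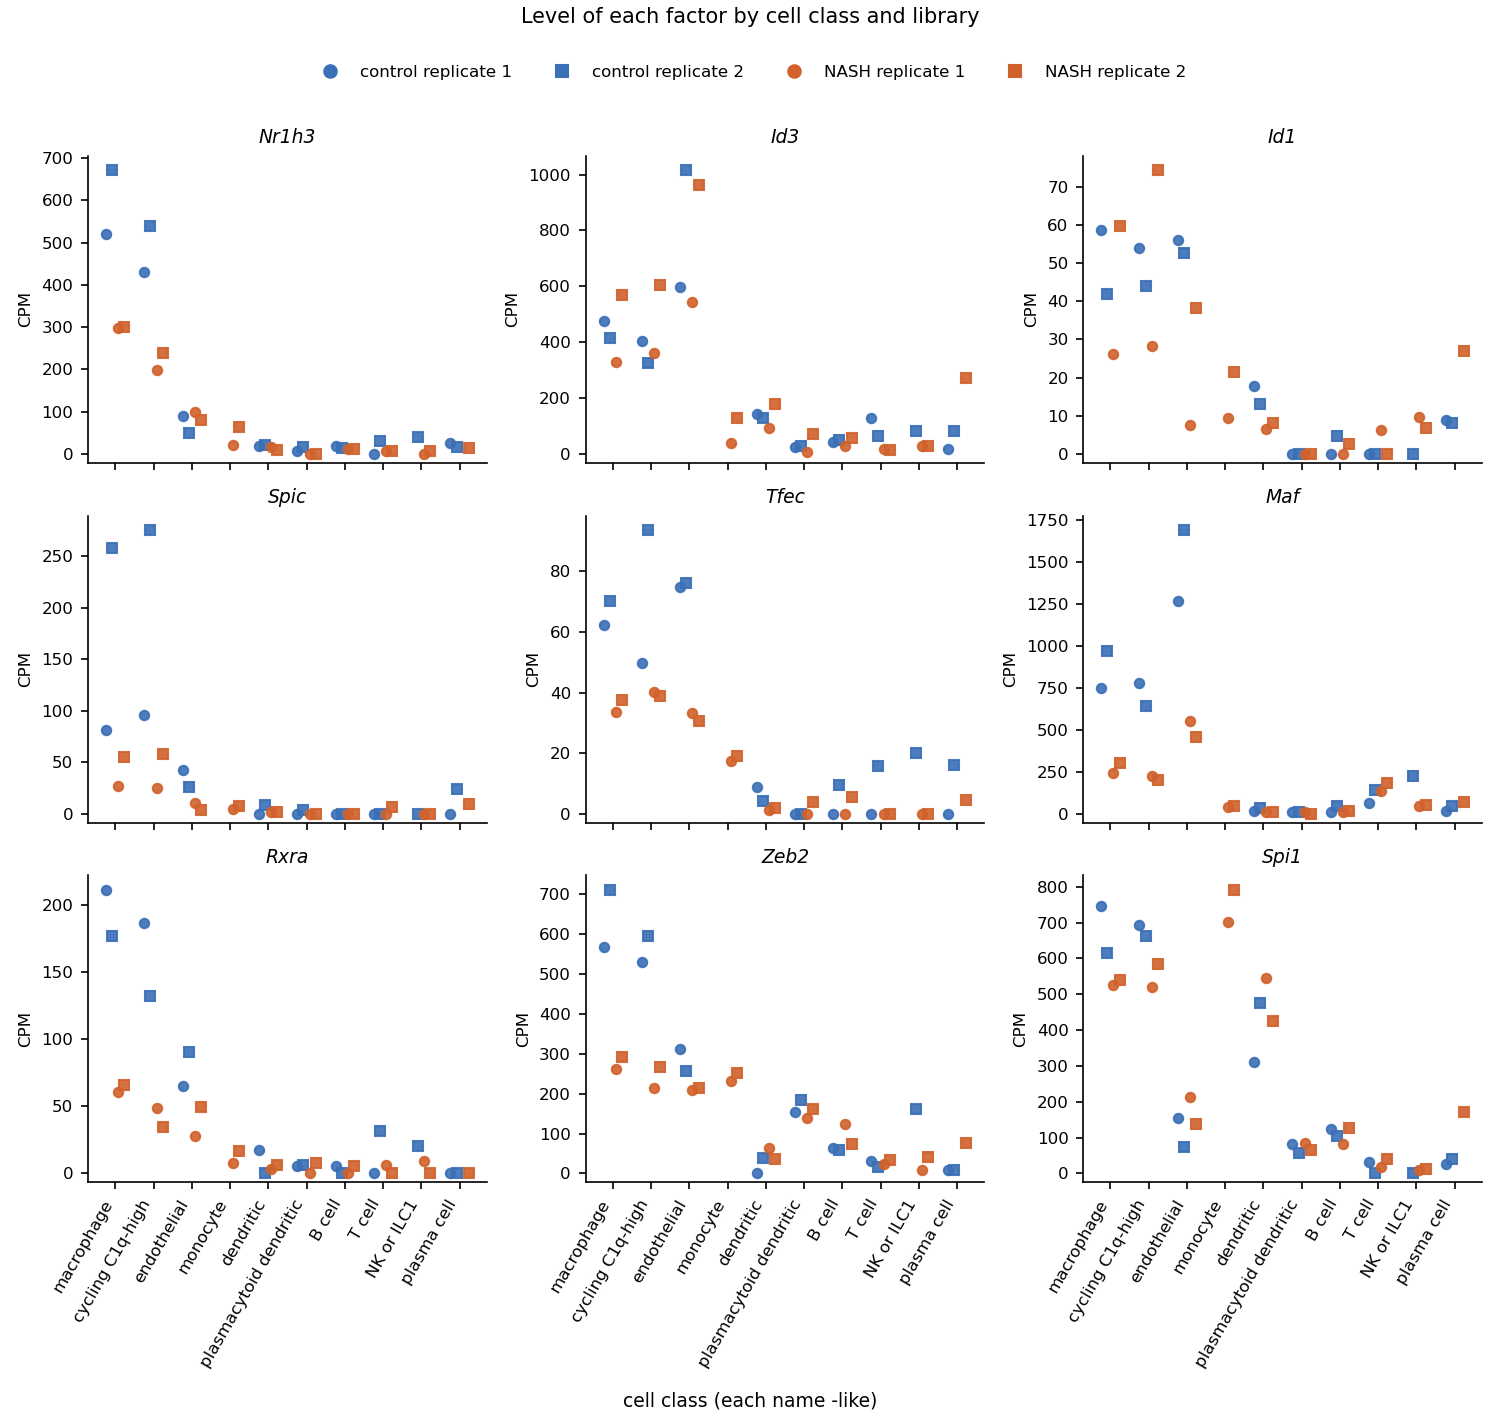
CPM (y axis) of the 9 genes in 10 cell classes (x axis), 1 point per library with at least 10 cells, controls in blue and NASH in orange. Nr1h3, Rxra and Spic are highest in macrophage-like and cycling cells, Maf and Id3 are highest in endothelial-like cells, and Spi1 is highest in monocyte-like cells, where the NASH libraries have enough cells.

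Maf and Id3 were higher in endothelial-like cells than in macrophage-like cells, and Tfec was at a like level in both. Maf stood at 1268 and 1691 CPM in controls and 553 and 455 CPM in NASH among endothelial-like cells, above the macrophage-like value of the same library in all 4. For Id3, the endothelial-like levels were 599, 1017, 545 and 963 CPM against 476, 414, 328 and 568 CPM in macrophage-like cells, and again each library was higher in endothelial-like cells. Tfec measured 74.8, 76.2, 33.3 and 30.6 CPM in endothelial-like and 62.3, 70.1, 33.5 and 37.6 CPM in macrophage-like cells, with overlapping ranges. Id1 lay between 7.68 and 59.7 CPM in both classes.

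Spi1 and Zeb2 reached beyond macrophages among immune cells. Spi1 was highest in monocyte-like cells, at 701 and 792 CPM in the NASH libraries, the ones with at least 10 such cells. Cycling and macrophage-like cells followed at means of 614 and 606 CPM, and dendritic cell-like cells at 311, 474, 546 and 425 CPM. In B cell-like cells Spi1 stood at 123, 106, 83.0 and 126 CPM. Zeb2 was detected at 155, 185, 139 and 161 CPM in plasmacytoid dendritic cell-like cells and at 231 and 251 CPM in NASH monocyte-like cells, close to the 262 and 291 CPM of NASH macrophage-like cells. Maf was also present in T cell-like cells, at 65.0, 141, 136 and 182 CPM.

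In droplet data free RNA can give UMIs in cells of another type, so each level was set beside the share of C1q RNA there. In endothelial-like cells C1qa, C1qb and C1qc together stood at 18.4%, 8.55%, 29.2% and 21.1% of the macrophage-like level (controls first). Macrophage RNA at that proportion would carry Nr1h3 to 95.7, 57.5, 86.6 and 63.5 CPM, against 88.9, 49.8, 99.8 and 80.2 CPM measured, with both controls below and both NASH libraries above the proportional value. The same proportion would give 138, 83.0, 70.6 and 64.3 CPM of Maf, a small part of the 1268, 1691, 553 and 455 CPM measured, and 11.5, 5.99, 9.77 and 7.95 CPM of Tfec against 74.8, 76.2, 33.3 and 30.6 CPM. In the other direction, endothelial RNA at the level of its 20 markers accounted for at most 4.22% of any member's macrophage-like level, which was the value for Maf in NASH replicate 1.

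Within single cells the members were seen together in macrophage-like cells, and also in cycling and endothelial-like cells. After each cell was thinned to 1000 UMIs, which left out 13 and 9 of the control macrophage-like cells and none in NASH, a control macrophage-like cell had UMIs of 2.68 and 2.89 members on average, against 1.47 and 1.79 in NASH. At least 3 members were detected in 53.8% and 59.8% of control macrophage-like cells and in 15.8% and 25.1% of NASH ones. In cycling C1q-high cells these shares were 41.2% and 41.7% in controls and 9.68% and 16.9% in NASH. In endothelial-like cells they were 18.2% and 22.2% in controls and 8.77% and 2.33% in NASH. No B cell-like cell had 3 members, at means of 0.15, 0.291, 0.0667 and 0.25 members per cell. Without thinning, the share of macrophage-like cells with a UMI of Nr1h3 was 77.2%, 78.2%, 78.9% and 77.3% at the unequal depths given above. Thinned, it was 42.2% and 48.7% in controls and 22.4% and 26.9% in NASH, against 0% to 1.82% of B cell-like cells.

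Over 36 sums of 10 classes by library, the members differed in how closely their levels followed each other. The highest Pearson r of log2(CPM + 10) between members was 0.90 for Rxra with Tfec, followed by 0.89 for Rxra with Nr1h3 and 0.88 for Nr1h3 with Spic and with Tfec. The lowest was 0.21, between Spi1 and Maf. These sums share libraries and depth, so the values are descriptions. Among all genes with at least 50 CPM in a sum, Nr1h3 was most like Lgmn (r = 0.95), Axl and Cd5l, Spic was most like Siglece (0.93), Tmem26 and Slc16a9, and Rxra was most like Hbegf (0.93), Dse and Rgl1. Tfec was nearest to Rxra (0.90), Dse and Il1a, Maf to Serpinb6a (0.90), Sash1 and Pitpnc1, and Zeb2 to Arhgap17 (0.84), Gngt2 and Twf1. Spi1 went with Ms4a6c (0.91), Ifi30 and Camk1d, Id3 with Snx24 (0.89), Sash1 and Rsad2, and Id1 with Itga9 (0.87), Lgmn and Slc30a1.

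Macrophage-like cells of the NASH diet held less RNA of 5 of the 9 factors, Maf, Rxra, Zeb2, Nr1h3 and Tfec. None of the 9 was called higher in the main analysis. The diets differed broadly in these cells, with 44.2% of 10412 genes called and 21.0% called lower as the background for these 5. Maf measured 751 and 971 CPM in controls and 242 and 304 CPM in NASH (log2 fold change -1.29, SE 0.167, edgeR adjusted p = 0.000146). Rxra stood at 211 and 177 CPM in controls and 60.6 and 65.6 CPM in NASH (log2 fold change -1.25, SE 0.144, edgeR adjusted p = 6.85e-05). Zeb2 was found at 569 and 712 CPM in controls and 262 and 291 CPM in NASH (log2 fold change -0.84, SE 0.149, edgeR adjusted p = 0.000930). For these factors both NASH libraries lay below both controls. The share of all genes that separate by diet in CPM was not counted, so such statements here and below are descriptions.

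The diets' cells lay largely in different clusters of this class, so these values compare classes of unlike make-up. The Cd163 and Lepr cluster held 867, 122, 2 and 4 cells (controls first) and the Marco and Cxcl13 cluster 86, 718, 0 and 1. The Folr2 and Ccl24 cluster held 31, 9, 192 and 373, the Mmp12 and Mmp13 cluster 0, 1, 231 and 248, and the Spp1 and Gpnmb cluster 1, 1, 158 and 168. The Cd207 and Cx3cr1 cluster, with 15, 34, 181 and 286 cells, was the one with at least 10 cells in every library. Within it Maf stood at 552 and 788 CPM in controls and 276 and 313 CPM in NASH and Zeb2 at 331 and 609.5 CPM in controls and 285 and 312 CPM in NASH, with both NASH values below both control values. Nr1h3, in contrast, was at 188 and 199 CPM in controls and 225 and 204 CPM in NASH, and Rxra at 11.0 and 34.2 CPM in controls and 44.0 and 43.1 CPM in NASH from 1 and 5 control UMIs, with both NASH values above both control values. Tfec was at 11.0, 41.1, 27.3 and 32.4 CPM there, with overlapping diets. These are descriptions from few control cells, with no test, and the part of cluster make-up in the diet differences was not tested.

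The LXR-alpha gene and Tfec were lower by less. Nr1h3, with its levels given above, had a log2 fold change of -0.63 (SE 0.151, edgeR adjusted p = 0.00592). Tfec measured 62.3 and 70.1 CPM in controls and 33.5 and 37.6 CPM in NASH (log2 fold change -0.52, SE 0.151, edgeR adjusted p = 0.0149). Both NASH values lay below both control values for each gene. Both calls were lost when either NASH library was left out, at adjusted p = 0.0545 and 0.0651 for Nr1h3 and 0.134 and 0.0662 for Tfec, and Tfec also lost its call with DESeq2 (adjusted p = 0.119). The fitted changes are relative to TMM factors. Scaling to class totals instead moved the median log2 fold change of all genes from -0.025 to -0.39 and the split of calls from 2419 higher and 2186 lower to 1333 and 4022, with the count of members called lower again at 5.

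**Figure D2:**
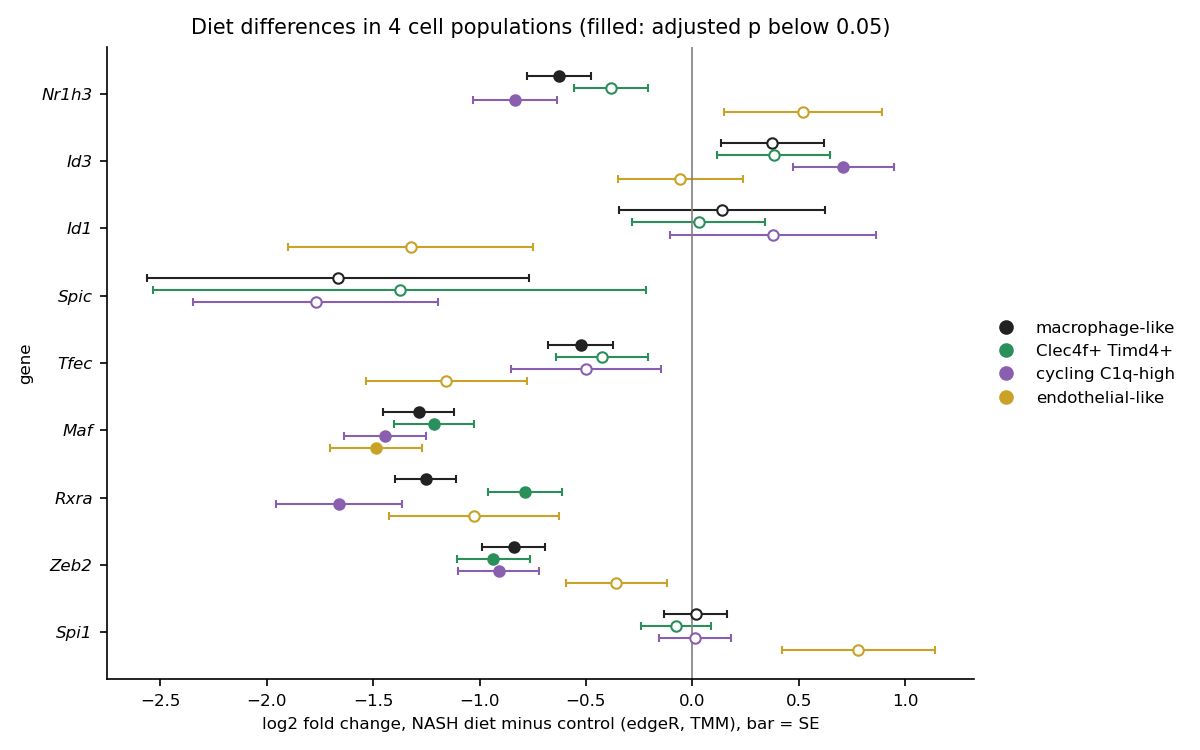
Log2 fold change of each gene, NASH diet minus control (x axis), with its SE, in macrophage-like, Clec4f+ Timd4+, cycling C1q-high and endothelial-like cells, from 2 libraries per diet. Filled points passed an adjusted p of 0.05, and Maf is the gene filled in all 4 populations.

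Spi1, Id3, Id1 and Spic were not called. Spi1 measured 746 and 614 CPM in controls and 525 and 539.7 CPM in NASH (log2 fold change 0.015, SE 0.147, edgeR adjusted p = 0.940), with both NASH libraries below both controls in CPM and no difference on the TMM scale, and its sign was negative with class totals (-0.36). Id3 varied between libraries more than between diets, at 476 and 414 CPM in controls and 328 and 568 CPM in NASH (log2 fold change 0.38, SE 0.243, edgeR adjusted p = 0.251). Id1 behaved likewise at 58.6 and 42.0 CPM in controls and 26.2 and 59.7 CPM in NASH (log2 fold change 0.14, SE 0.484, edgeR adjusted p = 0.847), and its sign too was negative with class totals (-0.23). For both Id genes the NASH values lay on either side of the controls. Id3 was called higher with no filter on low counts (0.44, edgeR adjusted p = 0.0139) and without NASH replicate 1 (0.71, edgeR adjusted p = 0.0198).

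The gap between the NASH libraries in Id3 was not limited to macrophages. NASH replicate 2 exceeded NASH replicate 1 in endothelial-like cells (545 and 963 CPM for replicates 1 and 2), dendritic cell-like cells (93.9 and 180.0 CPM), monocyte-like cells (37.7 and 127 CPM) and B cell-like cells (29.6 and 56.3 CPM). Plasmacytoid dendritic cell-like cells stood at 7.74 and 72.7 CPM, where 3 counts make 11.6 and 11.5 CPM. In T cell-like and NK or ILC1-like cells replicate 2 was not higher, at 18.6 and 13.5 and 28.9 and 27.1 CPM. There 3 counts make 18.6 and 20.2 and 28.9 and 20.3 CPM, so no order can be read from these values. Id1 showed the same order in macrophage-like and cycling cells. In endothelial-like and monocyte-like cells Id1 rested on 3 and 10 and on 6 and 9 UMIs. Their counting intervals overlapped, so no order is read there. No test is possible between single libraries.

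Spic differed between the libraries within each diet. Its fold change in macrophage-like cells was large but not called (log2 fold change -1.67, SE 0.898, edgeR adjusted p = 0.277), and control replicate 2, at 258 CPM, stood well above control replicate 1 at 81.6 CPM. Both NASH libraries, at 26.8 and 55.0 CPM, lay below both controls. Spic was called with replicate numbers as a block (-1.57, edgeR adjusted p = 5.75e-05) and after thinning to 1000 UMIs (-1.85, edgeR adjusted p = 0.0412). The labels do not say whether the replicate numbers pair the libraries. The control gap held inside clusters, with 81.2 and 164 CPM in the Cd163 and Lepr cluster and 119.8 and 288 CPM in the Marco and Cxcl13 cluster for replicates 1 and 2. Hmox1, the heme-degrading enzyme, moved the same way at 1628, 3987, 329.8 and 586 CPM. The scavenger receptor Marco, at 553, 3606, 20.6 and 21.2 CPM, did so between the controls and between diets. Between the NASH libraries Marco was alike. Hemoglobin UMIs were found in 19.9% of the macrophage-like cells of control replicate 2 and in 3.6% of those of control replicate 1. Cells of control replicate 2 without a hemoglobin UMI had a Spic level of 262 CPM, as high as the 240.1 CPM of cells with one. A hemoglobin UMI does not measure heme uptake by a cell, and the cause of the gap between the controls was not tested.

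Cells with both Clec4f and Timd4 had lower Maf, Zeb2 and Rxra in NASH. Clec4f, a C-type lectin of Kupffer cells, and Timd4, a receptor for phosphatidylserine on long-resident Kupffer cells, each had at least 1 UMI in 702 and 585 control cells and in 119 and 216 NASH cells. In this gate 3 of the 9 members were lower in NASH, against 28.3% of 8851 genes called and 12.0% called lower. Maf measured 739.6 and 951 CPM in controls and 248 and 346 CPM in NASH (log2 fold change -1.21, SE 0.189, edgeR adjusted p = 0.000307). Zeb2 stood at 574 and 698 CPM in controls and 242 and 301 CPM in NASH (log2 fold change -0.93, SE 0.171, edgeR adjusted p = 0.000862). Rxra was at 215 and 174 CPM in controls and 93.0 and 91.8 CPM in NASH (log2 fold change -0.79, SE 0.175, edgeR adjusted p = 0.00341). As a description, NASH and control libraries did not overlap in CPM for any of these. The gated cells were not alike between diets in Gpnmb and Ccr2, which are described below. Gpnmb stood at 0.747 and 0.492 CPM in controls and 116 and 62.8 CPM in NASH, and Ccr2 at 5.60 and 2.95 and 44.3 and 25.8 CPM. A gate of 1 UMI is also passed more easily at the greater depth of the NASH cells. The part of depth, free RNA and make-up of the gate in these differences was not tested.

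Nr1h3 was not called within the gate, at 517 and 697 CPM in controls and 392 and 369 CPM in NASH (log2 fold change -0.38, SE 0.173, edgeR adjusted p = 0.108), although the diets did not overlap in CPM. Tfec was not called either (-0.43 (SE 0.216, edgeR adjusted p = 0.153)). With class totals in place of TMM, both passed, at log2 fold changes of -0.68 (edgeR adjusted p = 0.00746) and -0.72 (edgeR adjusted p = 0.0179), and the split of all calls went from 1446 higher and 1063 lower to 816 and 2276. Rxra lost its call without NASH replicate 2 (adjusted p = 0.0773) and after thinning to 1000 UMIs (adjusted p = 0.187). The other members gave -1.38 for Spic, 0.38 for Id3, 0.03 for Id1 and -0.078 for Spi1, none of them called.

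RNA of other cell types moved with diet in the same macrophage-like sums. The 19 hepatocyte markers summed to 1532 and 1482 CPM in controls and 724 and 536 CPM in NASH, with all 19 detected in every library. The 20 endothelial markers summed to 300.4 and 334 CPM in controls and 191 and 169 CPM in NASH, with Stab2 at 89.2, 88.4, 37.6 and 35.1 CPM. Cd79a, Cd3e and S100a8 stood at 9.22 to 16.7, 1.71 to 3.40 and 23.4 to 155 CPM. Median mitochondrial share was 6.27% and 6.23% in controls against 3.65% and 3.27% in NASH. Beyond the proportional shares given above, the part of these in the diet differences was not tested.

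Maf, Rxra, Zeb2 and Nr1h3 were also lower in the NASH diet in cycling C1q-high cells, in which cell cycle genes lead (51, 48, 62 and 71 cells). They came from 2 clusters that the diets did not share evenly, one of 45, 39, 0 and 0 cells and one of 6, 9, 62 and 71. Of the 9 members 4 were lower and 1 higher, against 24.6% of 6118 genes called, 11.2% lower and 13.4% higher. Maf stood at 779.8 and 639.5 CPM in controls and 222 and 200.3 CPM in NASH (log2 fold change -1.44, SE 0.191, edgeR adjusted p = 4.9e-05). Rxra, Zeb2 and Nr1h3 had log2 fold changes of -1.66 (SE 0.296, edgeR adjusted p = 0.000694), -0.91 (SE 0.189, edgeR adjusted p = 0.00210) and -0.83 (SE 0.196, edgeR adjusted p = 0.00494). Nr1h3 lost its call with DESeq2 (adjusted p = 0.0505) and without NASH replicate 1 (edgeR adjusted p = 0.0684). Id3 was higher, at 402 and 325 CPM in controls and 362 and 605 CPM in NASH (log2 fold change 0.71, SE 0.236, edgeR adjusted p = 0.0392), but its libraries overlapped and the call was lost with class totals (edgeR adjusted p = 0.239), with DESeq2 (0.0776), with replicate numbers as a block (edgeR adjusted p = 0.0665), at Leiden resolution 0.5, and without control replicate 2 or NASH replicate 2. Class totals changed the split of all calls from 822 higher and 685 lower to 442 and 1242.

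Outside the C1q-high cells, Maf in endothelial-like cells was the member called for diet. Its level, given above, was lower in both NASH libraries than in both controls (log2 fold change -1.48, SE 0.216, edgeR adjusted p = 0.000752), against 7.71% of 4629 genes called and 4.49% called lower, 149 higher and 208 lower, or 131 and 245 with class totals. At Leiden resolution 2.0 the log2 fold change of Maf was -0.99 (edgeR adjusted p = 0.00732). At that resolution the endothelial cells separated partly by diet, with 23, 85, 5 and 2 cells in a cluster led by Enpep and Pcdh12 and 5, 15, 17 and 17 in one led by Bmp4 and Rspo3, which fell outside the named class. The diet effect on Maf in macrophage-like cells differed from that in endothelial-like cells by 0.16 (SE 0.234, normal 95% interval -0.29 to 0.62, edgeR adjusted p = 0.825, with 2.20% of 10168 genes called), and that interval holds differences in either direction. Tfec, Rxra and Id1 were also lower in endothelial-like cells of NASH but were not called, at -1.16 (SE 0.377, edgeR adjusted p = 0.0789), -1.02 (SE 0.399, edgeR adjusted p = 0.148) and -1.32 (SE 0.575, edgeR adjusted p = 0.194). No member was called in B cell-like (1.78% of 2028 genes called, 2 members tested), T cell-like (3.40% of 1294, 1 tested), dendritic cell-like (3.60% of 6270, 6 tested) or plasmacytoid dendritic cell-like cells (2.59% of 3512, 2 tested). Of these 11 edgeR tests 1 had an unadjusted p under 0.05, Maf in dendritic cell-like cells (0.00806, -1.92 on the log2 scale), and DESeq2 also called 0. Tested as a difference in diet effect from macrophage-like cells, Zeb2 differed in B cell-like (3.06% of 9251 genes called) and dendritic cell-like cells (7.06% of 9956), Maf in T cell-like cells (0.383% of 9139), and no member in plasmacytoid dendritic cell-like cells (8.41% of 9513).

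Within the NASH diet the macrophage-like cells were split by Clec4f and Timd4. Cells without a Clec4f UMI numbered 200 and 258, cells with Clec4f and without Timd4 445 and 606. Clec4f UMIs were also found in 22.0% of B cell-like, 31.9% of plasmacytoid dendritic cell-like and 29.2% of monocyte-like cells. A gate of 1 UMI thus does not settle what a cell is. The part of free Clec4f RNA in the gates was not tested. Gpnmb, a marker of lipid-associated macrophages, stood at 511 and 386 CPM in Clec4f- and 116 and 62.8 CPM in Clec4f+ Timd4+ cells, and the monocyte chemokine receptor Ccr2 at 158 and 161 and 44.3 and 25.8 CPM.

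Clec4f- macrophages held less RNA of 4 members, Nr1h3, Rxra, Tfec and Spic, against 18.2% of 8163 genes called and 9.64% called lower. Nr1h3 measured 179 and 187 CPM against 392 and 369 CPM in Clec4f+ Timd4+ cells (log2 fold change -0.96, SE 0.0982, edgeR adjusted p = 2.35e-14). Rxra stood at 33.3 and 40.2 against 93.0 and 91.8 CPM (log2 fold change -1.22, SE 0.164, edgeR adjusted p = 1.3e-09). Tfec was at 18.2 and 21.6 against 37.2 and 49.9 CPM (log2 fold change -1.04, SE 0.220, edgeR adjusted p = 0.000106). Spic reached 18.2 and 36.6 against 24.8 and 79.4 CPM (log2 fold change -0.86, SE 0.197, edgeR adjusted p = 0.000411). Both libraries were lower in Clec4f- cells for all 4 genes, and for Spic the ranges of the gates overlapped.

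**Figure D3:**
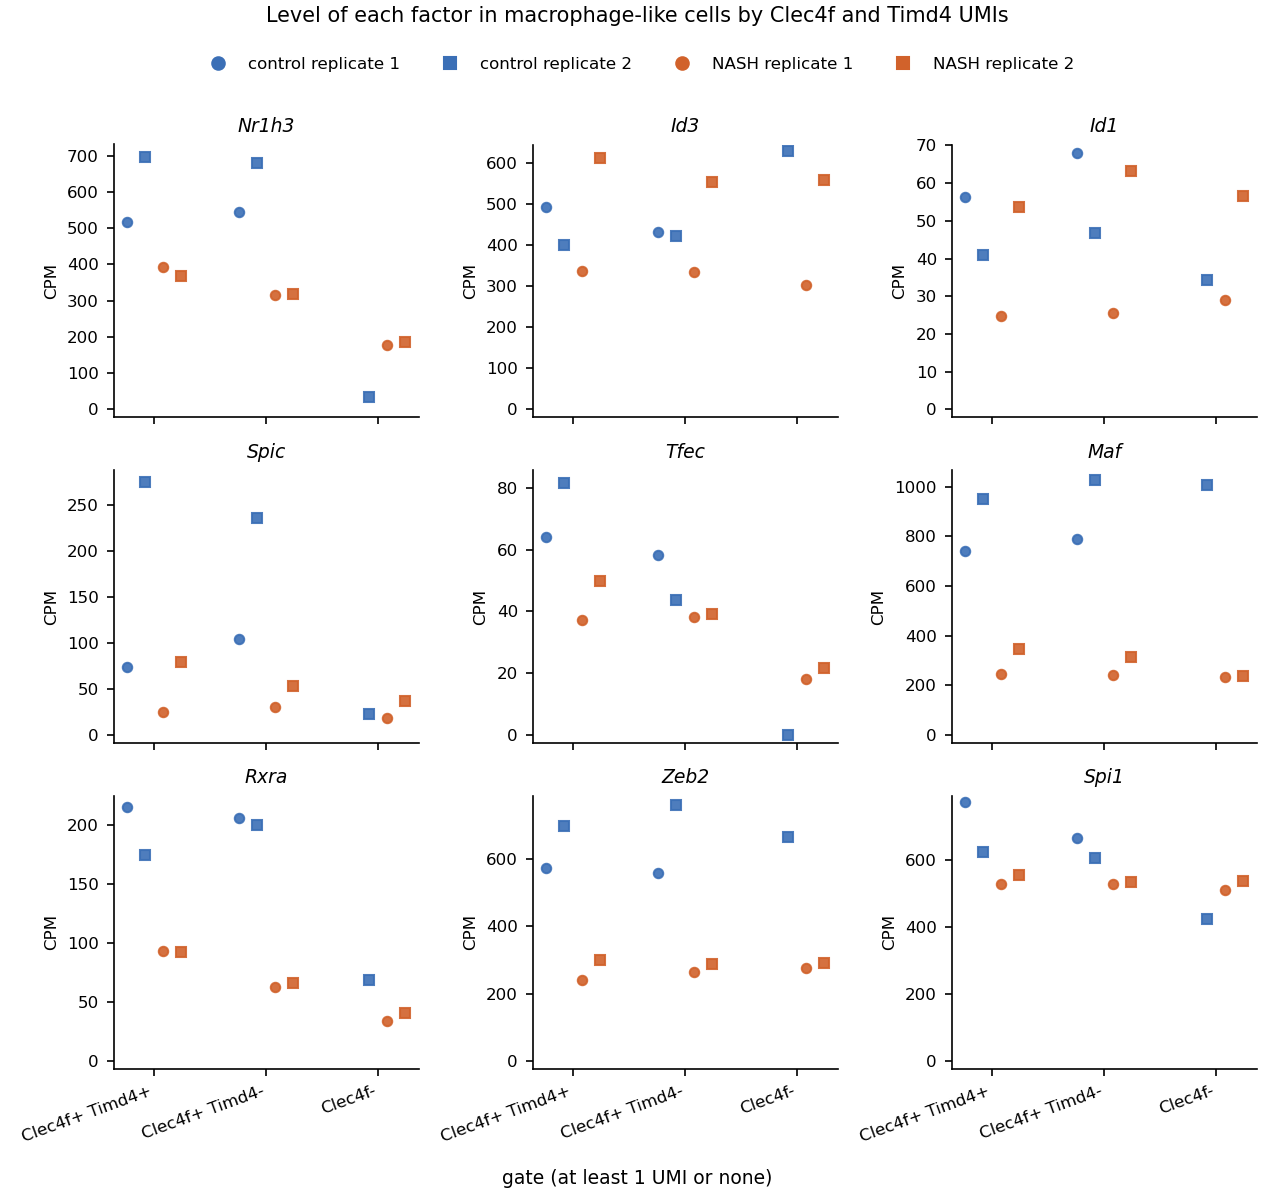
CPM (y axis) of the 9 genes in macrophage-like cells grouped by UMIs of Clec4f and Timd4 (x axis), 1 point per library with at least 10 cells. In NASH, Nr1h3, Rxra and Tfec step down from Clec4f+ Timd4+ to Clec4f- cells, while Zeb2 and Spi1 stay at about the same level within each NASH library, and Maf is lower in Clec4f- cells of NASH replicate 2.

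Maf and Zeb2, which were lower with diet, were not called between these gates. Maf stood at 233 and 239 CPM in Clec4f- and 248 and 346 CPM in Clec4f+ Timd4+ cells (log2 fold change -0.24, SE 0.102, edgeR adjusted p = 0.0902), and with class totals it was called at -0.33 (edgeR adjusted p = 0.00613). Zeb2 was at 276 and 292 against 242 and 301 CPM (log2 fold change 0.15, SE 0.0976, edgeR adjusted p = 0.324). Spi1, Id3 and Id1 gave 0.046 (SE 0.0802, edgeR adjusted p = 0.780), -0.046 (SE 0.0842, edgeR adjusted p = 0.790) and 0.21 (SE 0.188, edgeR adjusted p = 0.527). In 21 Clec4f- cells of control replicate 2, the control library with at least 10, Maf and Zeb2 stood at 1008 and 664 CPM, the level of the other control gates, while Nr1h3 stood at 34.4 CPM from 3 UMIs.

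The gates of 1 library share its cells' source and 2 pairs leave little spread to estimate, so these p-values rest mainly on the spread pooled over genes. After thinning to 1000 UMIs, with gates drawn again, 1 member, Tfec, was called, with Nr1h3 at -0.72 (edgeR adjusted p = 0.365) and Rxra at -1.24 (edgeR adjusted p = 0.484), and DESeq2 called 2. Spic lost its call with DESeq2 and without the library as a block (edgeR adjusted p = 0.608). Clec4f+ Timd4- against Clec4f+ Timd4+ cells gave 2 members lower, Nr1h3 (-0.21 (SE 0.0639, edgeR adjusted p = 0.0180)) and Rxra (-0.48 (SE 0.118, edgeR adjusted p = 0.00137)), against 6.49% of 9246 genes called and 3.45% called lower. Neither call was made by DESeq2, without the library as a block, or with gates at 2 UMIs. Class totals changed the split of all calls from 281 higher and 319 lower to 216 and 413 here, and from 702 higher and 787 lower to 522 and 1064 in Clec4f- cells.

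Clusters within NASH, as a description without the gate, ordered Nr1h3, Rxra and Tfec alike. Nr1h3 was 384 and 397 CPM in the Folr2 and Ccl24 cluster, 372 and 334 CPM in the Mmp12 and Mmp13 cluster, 225 and 204 CPM in the Cd207 and Cx3cr1 cluster and 168 and 182 CPM in the Spp1 and Gpnmb cluster. Rxra followed that order at 94.6 and 92.7, 70.8 and 73.9, 44.0 and 43.1 and 23.2 and 27.5 CPM. Tfec did too, ending at 11.6 and 10.1 CPM. Spic did not follow it in NASH replicate 1, at 27.2, 38.7, 28.6 and 11.0 CPM. In NASH replicate 2 Spic stood at 78.8, 53.2, 35.2 and 33.5 CPM. Maf was at 168.5 and 174 CPM in the Spp1 and Gpnmb cluster and at 246 to 373 CPM in the others. Zeb2 spanned only 225 to 312 CPM over these clusters, and Spi1 478 to 556 CPM.

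**Figure D4:**
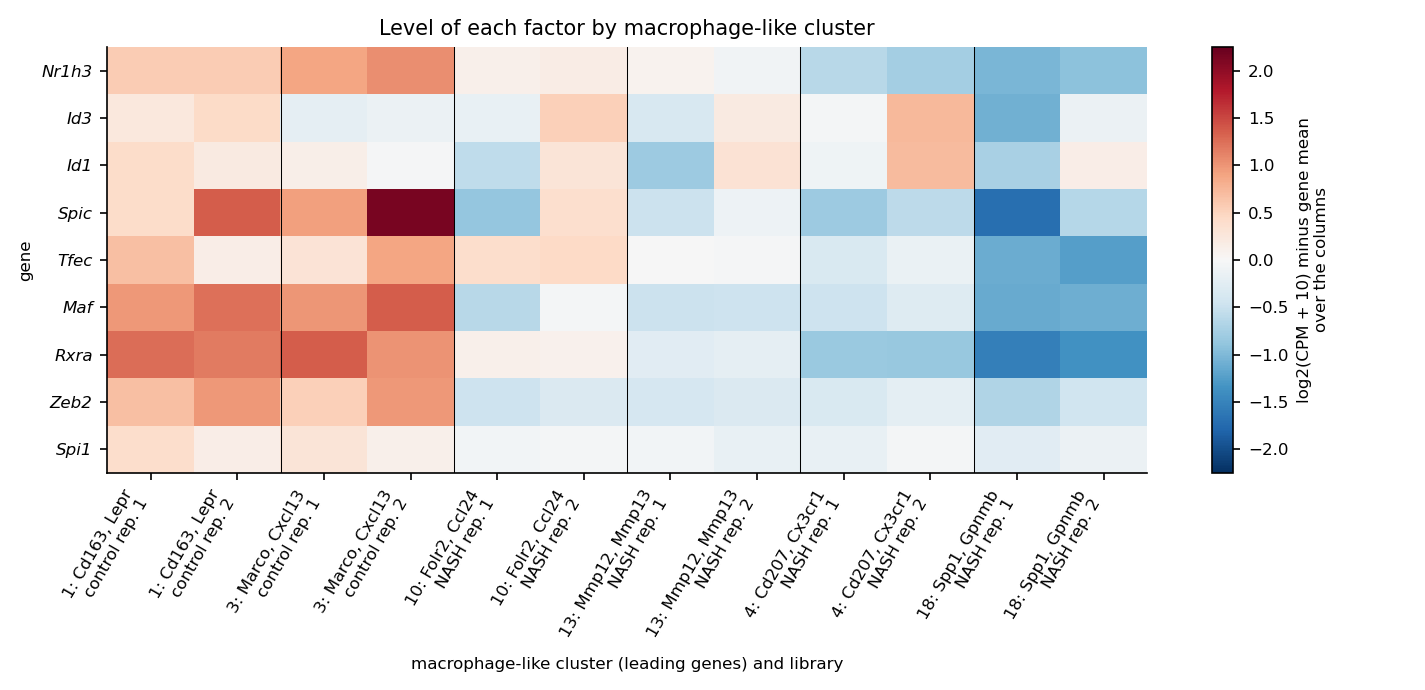
Level of each gene by macrophage-like cluster and library, as log2(CPM + 10) minus the gene's mean over the columns, with control columns on the left and NASH columns on the right. Rxra and Nr1h3 are lowest in the Spp1 and Gpnmb cluster, and Spic is highest in the Marco and Cxcl13 cluster of control replicate 2.

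A further C1q-high cluster led by Ms4a4c and Ccr2, kept out of the macrophage-like class for its monocyte genes, held 211 and 179 cells in NASH. Nkg7, a gene of cytotoxic lymphocytes, was among its leading genes, and Cd3e of T cells stood at 26.4 and 17.7 CPM against 2.50 and 1.71 CPM in macrophage-like cells of NASH. At Leiden resolution 2.0 a C1q-high cluster led by Nkg7 and Cd3d held 81 and 80 NASH cells. The part of lymphocyte RNA in the levels of this cluster was not tested. Its NASH libraries had Nr1h3 at 122 and 114 CPM, Rxra at 22.8 and 22.4 CPM and Spic at 12.2 and 11.8 CPM. Zeb2 and Spi1 were at 265 and 269 and 494 and 509 CPM, the macrophage-like level. Maf was at 159 and 197 CPM. With these cells added to the macrophage-like class, 5 members were called lower for diet.

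Gene lists around the factors were counted in NASH against control macrophage-like cells, where 23.2% of all genes were called higher and 21.0% lower. Of 24 tested genes of Notch, BMP and TGF-beta signaling, 3 were called higher and 12 lower, with a median log2 fold change of -0.73 against -0.025 for all genes. The BMP receptor Bmpr1a changed by -3.91 (edgeR adjusted p = 1.8e-05) and Bmpr2 by -1.01 (edgeR adjusted p = 0.000492), while the TGF-beta receptor Tgfbr1 changed by 1.68 (edgeR adjusted p = 8.94e-06) and the Notch target Hey1 by 1.37 (edgeR adjusted p = 0.000541). Close paralogues of the members mostly were not called, 0 higher and 1 lower of 11, a median of -0.16. The lower one was the MiT factor Tfe3 at -0.96 (edgeR adjusted p = 0.000757), and Tfeb, Zeb1 and Id2 gave 0.44 (edgeR adjusted p = 0.0522), -0.71 (edgeR adjusted p = 0.0903) and 0.39 (edgeR adjusted p = 0.0980).

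Of 19 reported LXR targets tested, 6 were higher and 5 lower (median 0.24), near the 23.2% and 21.0% of all genes. Apoe, encoding apolipoprotein E, changed by 2.25 (edgeR adjusted p = 6.45e-06) and the phospholipid transfer protein Pltp by 0.61 (edgeR adjusted p = 0.00703). The apoptotic-cell receptor Mertk and the cholesterol exporter Abca1 changed by -1.02 (edgeR adjusted p = 0.000159) and -0.62 (edgeR adjusted p = 0.00655). Of 23 Kupffer identity genes 4 were higher and 15 lower (median -1.28), led by Cdh5 at -1.64 (edgeR adjusted p = 8.94e-06), Xlr at -1.92 (edgeR adjusted p = 1.26e-05), the iron exporter Slc40a1 at -1.96 (edgeR adjusted p = 2.21e-05) and Dmpk at -1.28 (edgeR adjusted p = 3.58e-05). In Clec4f- against Clec4f+ Timd4+ NASH cells, 1 of the 23 was higher and 21 lower (8.60% and 9.64% of all genes), a list that holds both gate genes.

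Of 23 other myeloid transcription factors 5 were higher and 11 lower (median -0.40). Pparg and Runx3 changed by 1.65 (edgeR adjusted p = 0.000107) and 2.23 (edgeR adjusted p = 0.000306), and Fli1 and Ikzf1 by -0.89 (edgeR adjusted p = 0.000355) and -0.89 (edgeR adjusted p = 0.000498). Of 12 partners of ID and ETS factors 1 was higher and 7 lower (median -0.59), among them Ets2 at -2.52 (edgeR adjusted p = 1.61e-06), Elk4 at -1.21 (edgeR adjusted p = 0.000176) and the E proteins Tcf3 at -1.11 (edgeR adjusted p = 0.000226) and Tcf4 at -0.75 (edgeR adjusted p = 0.00135). In the Clec4f+ Timd4+ gate, where 16.3% of all genes were called higher and 12.0% lower, the signaling list gave 2 higher and 8 lower of 22, and the LXR targets 5 higher and 5 lower of 19. The Kupffer identity genes gave 4 higher and 11 lower of 23 there, the other myeloid factors 3 and 6 of 22, the partners 0 and 4 of 12, and the paralogues 0 and 1 of 10.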

How the data were processed

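RNA was measured in 4 libraries, 2 per diet. The deposited values are counts, raw UMIs per gene and barcode for 27998 genes. The submitters' processing notes name Cell Ranger, Seurat and mm10, and no versions are given in these sources. Libraries held 5513953, 5684819, 13749657 and 15619962 UMIs (controls first). Shares carry exact binomial intervals in the tables, and intervals and floors cover counting error only.

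Kept barcodes had at least 200 genes and a mitochondrial share of at most 10%. The 79 cells with the highest Scrublet scores (0.8% per 1000 cells) were left out. Scanpy 1.11.5 clustered the cells (2000 variable genes without the 9 members, 30 components, 15 neighbours, Leiden resolution 1.0, igraph 0.11.9). Clusters were named from marker lists by their top 10 genes. The rule for C1q-high clusters (C1qa, C1qb and C1qc each in at least 90% of cells, at least 3 macrophage markers, fewer than 2 top genes of 1 other class) was set after clusters were seen. Counts were summed per library and class where every library had at least 10 cells. The robust quasi-likelihood test of edgeR 4.0.16 followed TMM scaling and filterByExpr, with the library as a block between gates, and DESeq2 1.42.0 was an alternative (R 4.3.3). Fold changes are on the log2 scale. The code was tested on simulated data.

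The members and gene lists were chosen with earlier results of these data known. Besides the members, genes were named as the 3 most correlated with each member and the 4 of smallest p in each list. Alternatives were size factors, no count filter, DESeq2, each library left out, replicate numbers as a block, stricter cell and doublet filters, other resolutions and gates, thinning, and, chosen after seeing the data, class totals, the added C1q-high cluster and the hemoglobin split. Promoters matched 6 of 9 members by symbol.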

Additional observations from a re-analysis of the deposited data

Results flagged for a closer look

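The diet effect on 2 members differed between macrophage-like cells and another class by a test of the difference itself (edgeR's quasi-likelihood test of the interaction, Benjamini-Hochberg adjusted). Zeb2, lower with NASH in macrophage-like cells, gave a difference in log2 fold change of -1.37 against B cell-like cells (SE 0.431, edgeR adjusted p = 0.0471, with 3.06% of 9251 genes called). B cell-like cells had Zeb2 at 64.5, 57.7, 124 and 75.1 CPM, from 11 to 28 UMIs per library. Against dendritic cell-like cells the difference for Zeb2 was -2.002 (SE 0.468, edgeR adjusted p = 0.000824, 7.06% of 9956 genes called), with 0, 38.8, 64.0 and 35.3 CPM there and 0 UMIs among the 10 cells of control replicate 1. Maf gave a difference of -2.20 against T cell-like cells (SE 0.527, edgeR adjusted p = 0.0123, 0.383% of 9139 genes called), with 65.0, 141, 136 and 182 CPM in T cell-like cells, from 2 to 27 UMIs. Of the 4 fits that leave out a library, the Zeb2 differences passed in 1 fit each, without NASH replicate 2, and the Maf difference in none. Without control replicate 2 the dendritic cell-like controls had 0 Zeb2 UMIs, and the fitted difference there of -11.3 (edgeR adjusted p = 0.170) depends on the prior count and is no bound. Against plasmacytoid dendritic cell-like cells 0 members were called (8.41% of 9513 genes). The median difference over all genes was 0.021 for B cell-like, -0.37 for T cell-like and -0.18 for dendritic cell-like cells.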

How the results depend on the processing

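Of 661 tested refits of single members' fold changes, 559 kept their direction and side of the threshold, 38 lost a call, 25 gained one and 39 changed sign. Of 36 single-library ratios between gates, with no test, 29 kept their sign. Maf, Rxra and Zeb2 were called lower in macrophage-like cells in each of the 16 alternatives run there. Deviations of same-numbered libraries from their diet means were not correlated (r = -0.03 over 10412 genes). With 2 libraries per diet the 2 pairs mirror each other, so this value cannot show whether the replicate numbers pair the libraries. With replicate numbers as a block, Spic was called in macrophage-like cells (-1.57, edgeR adjusted p = 5.75e-05), 6 members were called there, and endothelial-like cells gave 2 members and 674 genes (357 without), B cell-like cells 91 genes (36) and T cell-like cells 0 (44). Between gates within NASH, with no replicate block, 0 members and 59 genes (600 with it) were called for Clec4f+ Timd4- cells, and 768 genes (1489) for Clec4f- cells.

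DESeq2 called fewer genes, 2792 (4605) in macrophage-like cells, 1089 (2509) in the Clec4f+ Timd4+ gate, 526 (1507) in cycling, 77 (226) in dendritic cell-like, 147 (357) in endothelial-like, 37 (91) in plasmacytoid dendritic cell-like and 6 (44) in T cell-like cells. For the gates it called 0 members and 77 genes in Clec4f+ Timd4- and 2 members and 301 genes in Clec4f- cells. Thinning to 1000 UMIs gave 2534 genes in macrophage-like cells, 274 in the Clec4f+ Timd4+ gate, 1 member and 14 genes in Clec4f+ Timd4- and 1 member and 55 genes in Clec4f- cells. Thinning also left fewer genes to test (7245, 2673 and 2610 in macrophage-like, Clec4f+ Timd4- and Clec4f- cells) and the gates were drawn again. Stricter cell filters gave 2655, 1273, 64 and 58 genes in macrophage-like, Clec4f+ Timd4+, B cell-like and plasmacytoid dendritic cell-like cells. Removing more doublets gave 201 genes in endothelial-like cells, no filter on low counts gave 74 in B cell-like and 25 in T cell-like cells, and 1 member in Clec4f+ Timd4- cells. Gates at 2 UMIs gave 0 members and 206 genes in Clec4f+ Timd4- cells. Class totals gave 5 members (3) in the Clec4f+ Timd4+ gate. Leiden resolution 2.0 gave 2 members (1) in endothelial-like cells.

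Leaving out 1 library gave 3 to 5 members in macrophage-like cells and 1 to 3 in endothelial-like cells. The ranges of genes called were 1027 to 2290 (Clec4f+ Timd4+), 49 to 116 (B cell-like), 26 to 28 (T cell-like), 929 to 1200 (cycling), 109 to 263 (dendritic cell-like) and 218 to 636 (endothelial-like). For differences in diet effect against macrophage-like cells, they were 0 to 1 member and 94 to 268 genes for B cell-like, 0 members and 0 to 6 genes for T cell-like, 0 to 1 and 92 to 397 for dendritic cell-like, 0 to 2 and 99 to 396 for endothelial-like, and 411 to 781 genes for plasmacytoid dendritic cell-like cells.

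Signs changed with a library left out for Id3 (-0.0388 to 0.71 in macrophage-like, -0.10 to 0.75 in Clec4f+ Timd4+, -0.44 to 0.34 in endothelial-like cells), Id1 (-0.54 to 0.60, -0.67 to 0.43, and -0.44 to 0.91 in cycling cells) and Spi1 (-0.12 to 0.16, -0.22 to 0.10, and -0.0274 to 0.11 in cycling cells). In Clec4f+ Timd4- cells the single-library log2 ratios, with no test, ran from -0.58 to 0.31 for Spic, -0.35 to 0.0455 for Tfec, -0.0677 to 0.12 for Zeb2 and -0.0577 to 0.0022 for Spi1, and in Clec4f- cells from -0.0443 to 0.19 for Zeb2 and from -0.0491 to -0.0472 for Spi1. The macrophage-like against endothelial-like differences ran from -0.0899 to 0.79 for Id3, -0.87 to 1.75 for Spic, -0.28 to 0.52 for Maf and -0.61 to 0.0315 for Rxra. Other sign changes were, in macrophage-like cells, Id1 with class totals (-0.23) and cell-by-cell assignment (-0.00545), and Spi1 with class totals (-0.36), stricter cells (-0.0754), more doublets removed (-0.0119), resolution 0.5 (-0.0238), cell-by-cell assignment (-0.0529) and the added cluster (-0.0200). In the Clec4f+ Timd4+ gate they were Id1 with DESeq2 (-0.000844), class totals (-0.26), the replicate block (-0.0037), stricter cells (-0.18) and 2 UMIs (-0.25), and Tfec thinned (0.83). Spi1 changed in cycling cells with class totals (-0.31) and resolution 0.5 (-0.0144), and between gates with class totals (-0.0310 and -0.0484). Zeb2 did in endothelial-like cells under stricter filters (0.0562), and Nr1h3 and Id3 did in Clec4f+ Timd4- cells when thinned (0.0477 and 0.0223). The causes were not tested.

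The number of members with their highest class mean in macrophage-like cells, cycling cells aside, was 5, and 5 to 6 at other resolutions and after thinning. No value came from stricter cell filters for T cell-like, cycling and dendritic cell-like cells, from more doublets removed for dendritic cell-like cells, from resolution 0.5 for B cell-like cells or from resolution 2.0 for T cell-like cells, each with fewer than 10 cells in a library.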
